A study of Macaca mulatta with 28 samples.

Results

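The 5 dopamine receptor genes, DRD1 to DRD5, were followed as 5 of the 16885 transcripts with a gene symbol in a count table from the ventral tegmental area (VTA), where the dopamine neurons that project to the nucleus accumbens and cortex have their cell bodies. They were taken by their symbols, and each symbol has 1 transcript in the table. Dopamine receptors are G protein-coupled receptors of 2 classes. The D1-like class, DRD1 and DRD5, couples to stimulatory G proteins and raises cyclic AMP, while the D2-like class, DRD2, DRD3 and DRD4, couples to inhibitory G proteins. In the midbrain DRD2 is best known as the autoreceptor of dopamine neurons, through which released dopamine opens GIRK potassium channels and slows firing.

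RNA came from VTA punches of 28 wild-type adult male rhesus macaques, with 1 library per animal. The 17 drinkers first went through an induction in which they drank set daily doses of ethanol. They then took ethanol by choice during 12 months of open access and 3-month periods of renewed access. There were 3 abstinence periods, and tissue was collected after 30 days without ethanol. The 11 controls, yoked in calories or kept as housing controls, received no ethanol. By the drinking category in the labels there were 1 Low, 2 Binge, 5 Heavy and 9 Very Heavy drinkers. Of the drinkers, 8 belonged to cohort 1 and 9 to cohort 2, and of the controls 8 and 3. Animals are named by category and number, and the number carries no order. Each punch is bulk tissue, so a lower level can come from fewer cells of a type or from less RNA per cell, which cannot be told apart. Totals ranged from 12303976 to 27338712 counts per animal with a median of 22020360, and transcripts of the mitochondrial genome took from 36.4% to 60.6% of them. Levels are given as CPM, the count relative to the total of the TMM-scaled library, a scaling that evens out differences in library composition, and 3 counts, taken as the lowest level that can be told from 0, equal from 0.112 to 0.238 CPM. This floor covers counting error only, while the intervals given for differences come from the fits and cover the spread between animals. All 15 listed dopamine neuron markers were detected, and their summed level ran from 57.1 to 1887 CPM in controls and from 62.2 to 1724 CPM in drinkers, so the transcripts that define the labelled tissue differed widely between punches.

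The receptor genes differ widely in structure. In the RefSeq annotation of Mmul_10, the build the authors used, DRD1 (ENSMMUT00000007253.4) lies on chromosome 6 at 172866688-172871404 on the minus strand and DRD5 (ENSMMUT00000003950.4) on chromosome 5 at 8822532-8829969 on the plus strand. Both have 2 exons, of which 1 is coding. DRD2 (ENSMMUT00000020121.4) spans 66.7 kb on chromosome 14 at 106549673-106616381 on the minus strand and has 8 exons, 7 of them coding. DRD3 (ENSMMUT00000032285.4) lies on chromosome 2 at 162085862-162136229 on the plus strand with 7 exons, and DRD4 (ENSMMUT00000003788.4) on chromosome 14 at 695156-698987 on the plus strand with 3. The DRD4 mRNA has a GC content of 73.4%, against 45.0% to 62.5% for the others. The D2 receptor is made in a long and a short form that differ by 1 alternative coding exon, exon 6 of 8 in the RefSeq model, which is shown because the DRD2 value here belongs to 1 listed transcript only. Its 87 bases, at chr14:106554445-106554531 on the minus strand, read 5′ to 3′ as follows.
DRD2 exon 6: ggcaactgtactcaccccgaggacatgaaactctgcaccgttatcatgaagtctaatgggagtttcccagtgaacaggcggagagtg
Whether the listed DRD2 transcript holds this exon was not determined here. The estimated DRD2 count was not a whole number in 22 of the 23 animals in which it was above 0, which is how the quantification records reads shared between transcripts. The same held for DRD5 in 3 animals, for DRD4 in 1 and for DRD1 and DRD3 in 0 of 28.

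DRD2 covered the widest range of CPM among the receptors, from 0 to 87.4. Relative to the mean, its spread over the 28 animals (coefficient of variation 99.1%) was close to that of the much lower DRD3 (104%). Among the 11 controls it ran from 0 through a median of 13.0 to 87.4 CPM, with Control 5 highest and Control 2 and Control 9 listed at 0. The single Low animal was listed at 0, while Binge 1 had 14.1 and Binge 2 had 51.4 CPM. Among the Heavy drinkers, Heavy 1 had 22.7, Heavy 2 had 59.9 and Heavy 5 had 16.9 CPM, and Heavy 3 and Heavy 4 were listed at 0. The 9 Very Heavy drinkers all had counts, from 2.27 through a median of 19.3 to 74.9 CPM. Every category with more than 1 animal overlapped with the controls, and high and low animals occurred in each cohort. The mean was 25.8 ± 25.5 CPM in drinkers (SD, n = 17) and 26.1 ± 27.3 CPM in controls (SD, n = 11), so the spread within each group was as large as its mean.

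**Figure D1:**
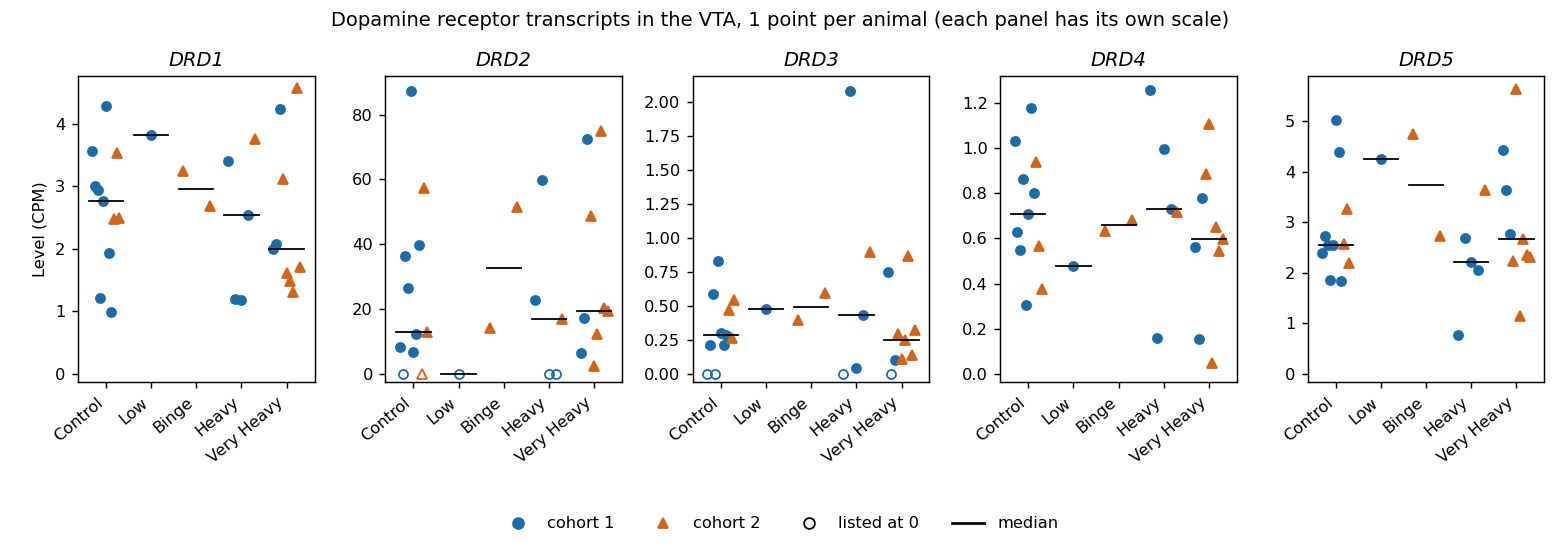
Levels of the 5 dopamine receptor transcripts in CPM, 1 panel per gene with its own scale, by drinking category. Each point is 1 animal (circles cohort 1, triangles cohort 2, open symbols listed at 0) and black bars are medians; drinkers and controls overlap in every panel, and DRD2 is at 0 in 5 animals.

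The 5 animals without DRD2 counts stood apart from the rest, because the lowest of the other 23 still had 41 counts. They were 3 of 17 drinkers and 2 of 11 controls (Fisher's exact test, two-sided, p = 1.0), and 4 belonged to cohort 1 and 1 to cohort 2. SLC6A3, the dopamine transporter, was detected in all 5. It was low in Control 2, at 8.82 CPM, and in Heavy 3, at 10.6 CPM. It was well above this in Control 9 (75.8 CPM), Heavy 4 (112 CPM) and Low 1 (190 CPM), of which Low 1 ranked 18 of 28 from the lowest. The line that describes DRD2 against SLC6A3 in the other 23 animals passes through 20.6 CPM at the SLC6A3 level of Control 9, 25.1 at that of Heavy 4 and 32.6 at that of Low 1, while 3 counts in these libraries equal 0.129 to 0.160 CPM. At the low SLC6A3 levels of Control 2 and Heavy 3 the line passes through 7.11 and 7.79 CPM. There 3 counts equal 0.210 and 0.136 CPM. A value of 0 for the listed transcript is not a measure of all DRD2 RNA, since counts assigned to other transcripts of the gene are outside the table, and their part in these values was not tested.

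DRD2 was compared with a score of dopamine neuron content, the mean z-score of 15 markers. Over all 28 animals, zeros included, Pearson's r was 0.50 (permutation p = 0.00701, adjusted p = 0.0978 over 60 relations) and Spearman's rho was 0.75 (permutation p = 2e-05, adjusted p = 0.0012), so that the relation passed the adjustment by rank and not by r. Without the 2 animals farthest from the median score r was 0.46 over all animals, and it was 0.53 within cohort 1 (n = 16) and 0.48 within cohort 2 (n = 12). Because the 5 animals at 0 stand apart, the relation was also taken over the 23 animals with counts, a choice made after the zeros were seen. There DRD2 followed the markers closely, at Pearson's r = 0.92 (permutation p = 1e-05, the smallest 100000 resamples can give, adjusted p = 6e-04 over 60 relations) and Spearman's rho = 0.93 (permutation p = 1e-05, adjusted p = 6e-04). Without the 2 animals farthest from the median score r was 0.95, and it was 0.93 within cohort 1 (n = 12), 0.94 within cohort 2 (n = 11), 0.96 in drinkers (n = 14) and 0.94 in controls (n = 9). Marker by marker the relation was uneven. Spearman's rho was 0.91 with SLC6A3, 0.91 with TH, the rate-limiting enzyme of dopamine synthesis, 0.91 with SLC18A2, the vesicular monoamine transporter, and 0.90 with DDC, the enzyme of the next step. It was 0.88 with the transcription factor PITX3 and 0.85 with EN1. It was far lower with NR4A2 (0.30), FOXA2 (0.19) and ALDH1A1 (0.07) and was −0.09 with SNCG, although these are on the same list. These values share their libraries and are descriptions over 23 animals.

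**Figure D2:**
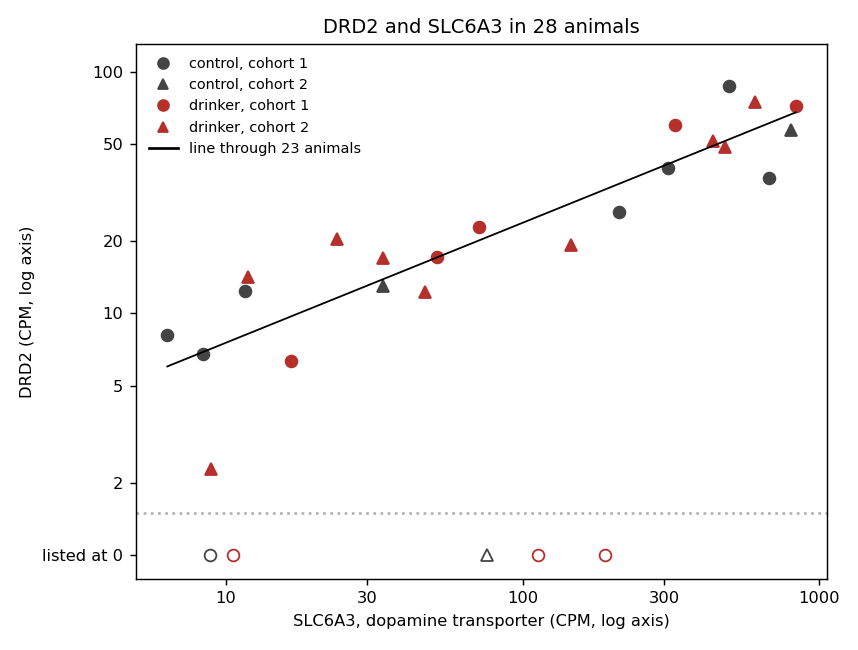
DRD2 against SLC6A3 in CPM, both on log axes, with 1 point per animal (grey controls, red drinkers, circles cohort 1, triangles cohort 2) and a least-squares line through the 23 animals with DRD2 counts. DRD2 lies between 2.27 and 87.4 over SLC6A3 levels from 6.35 to 833 and is higher where SLC6A3 is higher, and the 5 animals listed at 0, drawn below the dotted line, lie at SLC6A3 levels from 8.82 to 190.

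DRD2 spanned a narrower range than the transporter. SLC6A3 covered a 131-fold range over the 23 animals and DRD2 a 38.5-fold range, and the slope of log2 DRD2 on log2 SLC6A3 was 0.50 (standard error 0.051), with a residual SD of 0.59 on the log2 scale. The ratio of DRD2 to SLC6A3 therefore fell as SLC6A3 rose. It was 1.29 in Control 1, which had the lowest SLC6A3 level at 6.35 CPM, and 0.0868 in Very Heavy 3, which had the highest at 833 CPM. Drinkers with counts had ratios from 0.0868 to 1.19 and controls from 0.0538 to 1.29, ranges that overlapped almost entirely. Very Heavy 5 lay farthest under the line, by 1.65 on the log2 scale, with 2.27 CPM of DRD2 and 8.91 of SLC6A3.

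Between drinkers and controls the fitted difference in DRD2 was −0.02 on the log2 scale (standard error 0.79, 95% interval −1.64 to 1.60, edgeR quasi-likelihood test, adjusted p = 1.0). The interval is wide on both sides. The biological coefficient of variation that edgeR fitted was 1.57 for DRD2, higher than for 80.6% of the transcripts tested, against a median of 0.437. With the dopamine neuron score as a covariate the difference was 0.06. Within cohort 1 it was −0.29 (95% interval −2.46 to 1.89) and within cohort 2 it was 0.30 (95% interval −2.65 to 3.26), and the cohort by drinking interaction was 0.59 (standard error 1.79). The listed zeros, of 3 drinkers and 1 control in cohort 1 and 1 control in cohort 2, enter these fits. Within cohort 2 the difference was −0.28 without Control 9, the control at 0, and 2.14 without Control 10. The 3 values also moved with the method. With limma-voom they were −2.75, 2.77 and 5.52, and with the dopamine neuron score as a covariate −0.83, 0.87 and 1.70, with adjusted p from 0.542 to 1.0. Very Heavy drinkers differed from controls by 0.22 (standard error 0.90), Heavy drinkers from controls by −0.40 (standard error 1.10), and Very Heavy from Heavy drinkers by 0.61 (standard error 1.14). None of these passed the test. For the 3 Low and Binge drinkers, whose values were 0, 14.1 and 51.4 CPM, the fitted difference of −3.83 (standard error 2.50, adjusted p = 0.649) rests on the single Low animal at 0, and without it the difference was 0.32.

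DRD1, the receptor best known from striatal projection neurons of the direct pathway, was low, with a spread near that of the median transcript. It had counts in all 28 animals, from 21 to 115, and its level ran from 0.991 through a median of 2.76 to 4.28 CPM in controls. In the Heavy drinkers it was 3.41, 1.20, 1.18, 2.54 and 3.76 CPM for Heavy 1 to Heavy 5, so 2 of the 5 lay near the lowest control. The Very Heavy drinkers ran from 1.30 through a median of 2.00 to 4.58 CPM, with Very Heavy 8 highest of all animals, and Low 1 had 3.83, Binge 1 had 3.24 and Binge 2 had 2.69 CPM. Means were 2.59 ± 1.12 CPM in drinkers (SD, n = 17) and 2.66 ± 1.00 CPM in controls (SD, n = 11). The fitted difference was −0.04 on the log2 scale (standard error 0.26, 95% interval −0.57 to 0.49, adjusted p = 1.0). The values in cohort 1 (−0.02) and cohort 2 (−0.12) were likewise within their standard errors of 0.35 and 0.46.

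DRD5, the other D1-like receptor, had CPM values and a spread near those of DRD1, before mRNA length is taken into account. Its counts were from 19 to 135, and it ran from 1.84 through a median of 2.55 to 5.03 CPM in controls and from 1.13 through 2.66 to 5.64 CPM in Very Heavy drinkers. The Heavy drinkers had 0.771, 2.68, 2.22, 2.06 and 3.63 CPM, with Heavy 1 the lowest of the 28 animals. Low 1 had 4.26, Binge 1 had 4.75 and Binge 2 had 2.73 CPM, all above the control median but inside the control range. The mean was 2.96 ± 1.28 CPM in drinkers (SD, n = 17) and 2.85 ± 1.01 CPM in controls (SD, n = 11), and the fitted difference was 0.05 on the log2 scale (standard error 0.25, 95% interval −0.46 to 0.56, adjusted p = 1.0). The biological coefficients of variation of DRD1 (0.476) and DRD5 (0.456) were close to the median of all transcripts tested (0.437). The D1-like pair were the only receptors with at least 10 counts in every animal.

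DRD4, a D2-like receptor known mainly from cortical neurons and the retina, had 1 to 31 counts in the 28 animals. Controls ran from 0.307 through a median of 0.708 to 1.18 CPM. The Heavy drinkers had 1.26, 0.160, 0.997, 0.731 and 0.717 CPM, so Heavy 1 was above and Heavy 2 below every control. The Very Heavy drinkers ran from 0.0493 through 0.598 to 1.11 CPM, and the lowest value, 1 count in Very Heavy 6, is under the floor of 3 counts. Means were 0.646 ± 0.324 CPM in drinkers (SD, n = 17) and 0.723 ± 0.271 CPM in controls (SD, n = 11), and the fitted difference was −0.16 (standard error 0.36, 95% interval −0.90 to 0.58, adjusted p = 1.0).

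DRD3, the D2-like receptor of limbic forebrain targets and of some midbrain neurons, had the fewest counts. It was listed at 0 in 4 animals, Control 1, Control 4, Heavy 1 and Very Heavy 2, all of cohort 1. These were 2 of 17 drinkers and 2 of 11 controls (Fisher's exact test, two-sided, p = 1.0). Controls ran from 0 through a median of 0.283 to 0.833 CPM and Very Heavy drinkers from 0 through 0.247 to 0.869 CPM. The Heavy drinkers had 0, 2.08, 0.0453, 0.430 and 0.896 CPM, and the 52 counts of Heavy 2 set it far above the next animal, Heavy 5 with 20. Heavy 2 also had the highest DRD2 level among the Heavy drinkers, at 59.9 CPM, and a TH level of 712 CPM. The TH levels nearest to this were 826 CPM in Control 5, 653 in Control 3 and 644 in Control 8. DRD3 was at 0.833, 0.588 and 0.283 CPM in these animals. The fitted difference between drinkers and controls was 0.43 (standard error 0.70, 95% interval −1.01 to 1.87, adjusted p = 1.0). Within cohort 1 it was 0.66 (standard error 0.93), and it was −0.12 in limma-voom. Heavy drinkers differed from controls by 1.02 (standard error 0.95), a value set by Heavy 2, since without this animal it was 0.03.

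Levels can be set between genes only per length, here as CPM per kb of the RefSeq mRNA. DRD2 had a median of 6.06 CPM per kb over the 28 animals, DRD1 0.870, DRD5 0.549, DRD4 0.440 and DRD3 0.181. With the longer of its RefSeq mRNAs DRD1 was at 0.714 CPM per kb. DRD2 was the highest receptor in 22 of 28 animals and made up a median of 78.8% of the summed level of the family per kb, but from 0% to 94.0% in single animals. Of the remaining 6 animals, 5 are those with DRD2 listed at 0, in which DRD1 (4 animals) or DRD4 (1) was highest, and the other is Very Heavy 5, in which DRD5 was. Among the 23 animals with counts the median share of DRD2 was 81.6%. Counts by animal use the longer DRD1 mRNA. The neighbours below DRD2 were not well separated: DRD1 was above DRD5 in 17 of 28 animals, DRD5 above DRD4 in 20 and DRD4 above DRD3 in 21. The listed transcripts may differ in length from the RefSeq mRNAs, so this order carries that uncertainty.

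Of the 5 receptors, 0 passed an adjusted p of 0.05 between drinkers and controls in edgeR's quasi-likelihood test, where the share over all 13769 transcripts tested was also 0.0%. The same was true of Very Heavy drinkers against controls (background 0.0%), Heavy drinkers against controls (0.0%), Very Heavy against Heavy drinkers (0.0%) and drinkers against controls within cohort 2 (0.0%). Other comparisons did have calls elsewhere in the transcriptome, and the receptors were not among them. Within cohort 1, 0 of 5 receptors were called against 0.959% of all transcripts, and between the cohorts' drinkers 0 of 5 against 1.91%. These backgrounds, of 132 and 263 transcripts, were 5 with cohort 1 fitted alone and 104 with drinkers alone. For Low and Binge drinkers against controls it was 0 of 5 against 1.21%, a background that fell to 0 transcripts without Low 1, and for the interaction 0 of 5 against 0.0145%. At an unadjusted p under 0.05, 0 of 5 receptors passed in any of the 9 comparisons, where 4.57% of all transcripts did between drinkers and controls, 14.7% within cohort 1, 2.0% within cohort 2, 9.62% for the interaction and 15.6% between the cohorts' drinkers. The share was 4.62% for Very Heavy, 7.15% for Heavy and 9.14% for Low and Binge drinkers against controls and 6.8% between Very Heavy and Heavy drinkers. The lowest adjusted p of a receptor in these 45 tests was 0.649. DESeq2's Wald test and limma-voom called 0 of 5 receptors as well, and DESeq2 gave the only unadjusted p under 0.05, for DRD2 in the 3 Low and Binge drinkers (p = 0.0311, adjusted p = 0.308). The median difference over the 5 receptors between drinkers and controls was −0.02 on the log2 scale, beside 0.00147 over all transcripts tested. The drinkers of cohort 2 and cohort 1 differed in the receptors by −0.18 (DRD3) to 0.37 (DRD2), each less than its standard error. Replicates here are separate animals, and with 3 controls in cohort 2 the intervals of all 5 receptors were wider there than within cohort 1.

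**Figure D3:**
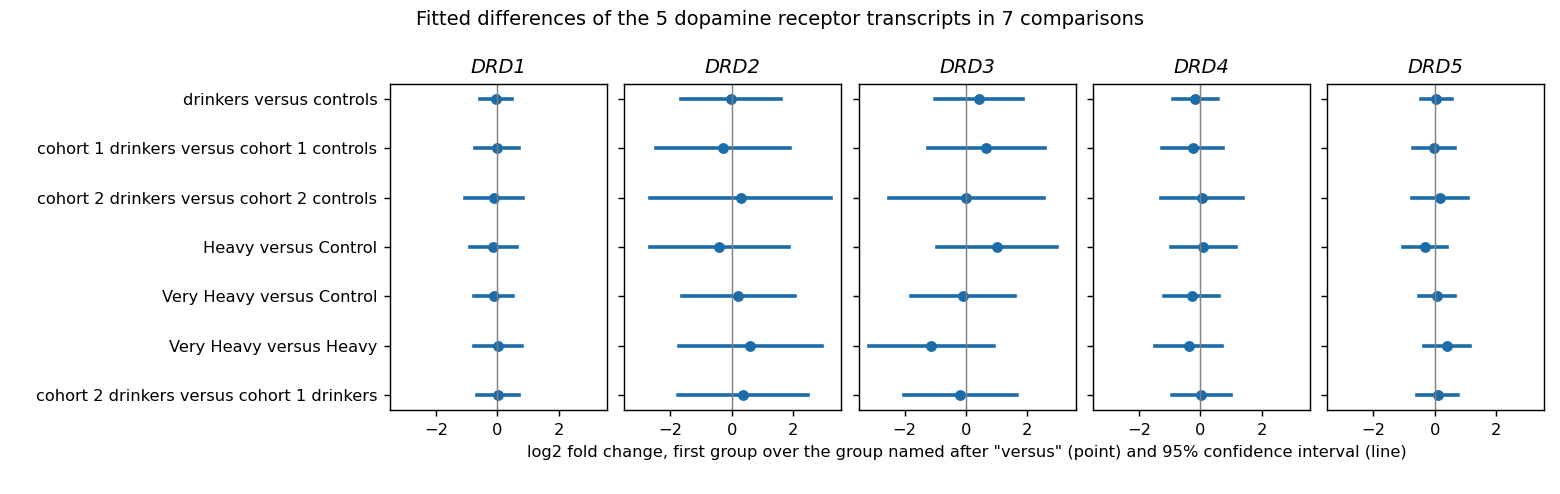
Fitted log2 fold change (point) and 95% confidence interval (line) of each receptor transcript in 7 comparisons from edgeR, first group over second. Every interval includes 0; those of DRD2 and DRD3 are the widest and those of DRD1 and DRD5 the narrowest.

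For the other receptors no relation with dopamine neuron content passed the test, and whether their correlations differ from that of DRD2 was not tested. Pearson's r with the dopamine neuron score over 28 animals was 0.01 for DRD1, 0.33 for DRD3, −0.19 for DRD4 and −0.27 for DRD5 (permutation p = 0.979, 0.0838, 0.329 and 0.166), and Spearman's rho was 0.00, 0.31, −0.24 and −0.29 (permutation p = 0.999, 0.105, 0.222 and 0.136). Over the 24 animals with DRD3 counts, r for DRD3 was 0.39 and rho was 0.36 (permutation p = 0.0602 and 0.0813). Of the 60 relations computed, 50 between a receptor and 1 of 10 cell type scores and 10 between receptors, with DRD2 over the 23 animals with counts, only that of DRD2 and dopamine neurons passed the adjustment, while 8 had an unadjusted p under 0.05 by Pearson's r and 9 by Spearman's rho. With DRD2 over all 28 animals, 0 passed by Pearson's r and 1, that same relation, by Spearman's rho, with 9 and 12 at an unadjusted p under 0.05. By Pearson's r the dopamine neuron score was then not the closest to DRD2. The serotonin neuron score had r = 0.56 and rho = 0.51 (permutation p = 0.00199 and 0.00707, adjusted p = 0.0978 and 0.111), and the GABA neuron score r = −0.50 and rho = −0.48 (permutation p = 0.00674 and 0.00957, adjusted p = 0.0978 and 0.111). The astrocyte score had r = 0.34 and rho = 0.52 with DRD2 over the same animals (permutation p = 0.0754 and 0.00512, adjusted p = 0.412 and 0.111). DRD4 had r = 0.51 and rho = 0.48 with the GABA neuron score (permutation p = 0.00571 and 0.0106, adjusted p = 0.163 and 0.221), and r was 0.53 within cohort 1 and 0.60 within cohort 2 but 0.37 without the 2 animals farthest from the median. DRD5 had r = 0.49 and rho = 0.38 with the striatal projection neuron score (permutation p = 0.00815 and 0.0483, adjusted p = 0.163 and 0.314), with 0.48 within cohort 1, 0.53 within cohort 2 and 0.46 without the 2 animals. DRD1 had r = 0.38 and rho = 0.41 with the same score (permutation p = 0.0469 and 0.0308, adjusted p = 0.352 and 0.25), with r = 0.28 without the 2 animals farthest from the median, 0.44 within cohort 1 and 0.23 within cohort 2. DRD4 had r = −0.39 and rho = −0.48 with the astrocyte score (permutation p = 0.0392 and 0.0111, adjusted p = 0.336 and 0.221), with r = −0.41 without the 2 animals, −0.56 within cohort 1 and −0.29 within cohort 2. With the serotonin neuron score DRD4 had r = −0.40 and rho = −0.43 (permutation p = 0.035 and 0.0244, adjusted p = 0.336 and 0.244). That r was −0.31 without the 2 animals, −0.65 within cohort 1 and 0.03 within cohort 2. With the GABA neuron score DRD3 had r = −0.43 and rho = −0.41 (permutation p = 0.0225 and 0.0333, adjusted p = 0.27 and 0.25). That r was −0.23 without the 2 animals, −0.50 within cohort 1 and −0.33 within cohort 2. The striatal list rests on 6 measured markers whose summed level was 24.1 to 146 CPM in controls and 45.2 to 178 CPM in drinkers, and the serotonin neuron score on TPH2 alone. Between receptors, DRD3 and DRD4 had r = −0.32 and rho = −0.43 (permutation p = 0.0985 and 0.0239, adjusted p = 0.464 and 0.244), with r = −0.49 within cohort 1 and 0.07 within cohort 2. Without the 2 animals farthest from the median it was −0.73, so this relation depends on which animals enter.

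**Figure D4:**
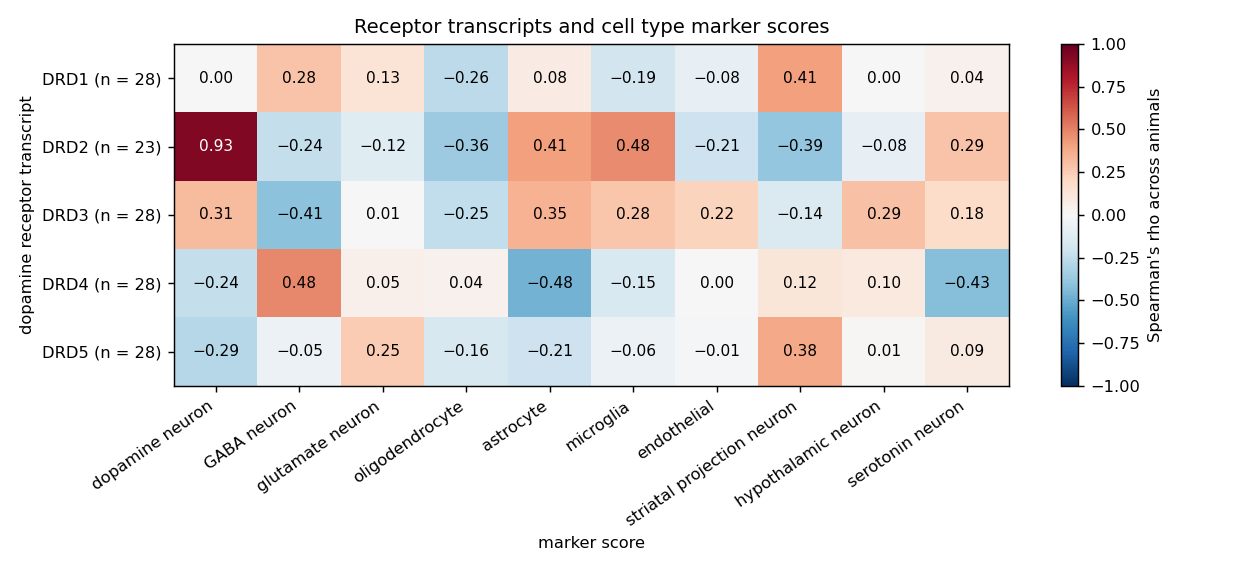
Spearman's rho across animals between each receptor transcript (rows, with the number of animals) and 10 cell type marker scores (columns), with red positive and blue negative. The value of 0.93 for DRD2 and the dopamine neuron score stands alone in this plot, where DRD2 is shown for the 23 animals with counts, and all other values lie between −0.48 and 0.48.

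The transcripts whose pattern over 28 animals was most like each receptor differed from gene to gene. For DRD2 they were CHRNB3, a nicotinic receptor subunit (Spearman's rho = 0.85), PITX3 (0.82), the cholecystokinin receptor CCKAR (0.80), the glutathione peroxidase GPX2 (0.79) and TH (0.77), and over the 23 animals with counts CHRNB3 (0.92), SLC6A3, TH, SLC18A2 and DDC (0.90). For DRD1 they included TTC3 (0.70), SLC25A27 (0.65), TRABD2B (0.64) and the glucosylceramide synthase UGCG (0.64). For DRD5 they were RNF7 (0.73), the phytanoyl-CoA hydroxylase PHYH (0.69), PPIL1 (0.63), CNNM2 (0.59) and OLFM1 (0.59). For DRD3 they were HHIPL1 (0.74), FAM114A1 (0.67), the integrin ITGA9 (0.66), NNT (0.65) and NUP133 (0.65), and for DRD4 PF4V1 (0.63), ASGR1, ZNF576 (0.59), GFER and ZCCHC8 (0.58). Apart from DRD2, no receptor had a dopamine neuron marker among its 5 closest. These were among the 5 closest of 13768 transcripts to each receptor over the same libraries, and TRABD2B and PF4V1 had medians of 0.0199 and 0.199 CPM, the first far under the floor of 3 counts and the second within its range.

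Genes that act downstream of the receptors were counted on 3 lists. Of the genes for D1-like coupling, the stimulatory G proteins, adenylyl cyclases and protein kinase A, 11 of 11 listed were tested, and between drinkers and controls 0 rose and 0 fell, with a median difference of −0.02. GNAS, the stimulatory G protein subunit, had 33.1 to 90.6 CPM in drinkers and 29.2 to 65.6 CPM in controls, a difference of 0.23 (standard error 0.14). Of the genes for D2-like coupling, the inhibitory G proteins, GIRK channel subunits and their regulators, 15 of 16 were tested and 0 rose and 0 fell, with a median of −0.09. GNAI3, an inhibitory G protein subunit, was the only 1 of the 15 with an unadjusted p under 0.05, where 4.57% of all transcripts had one, at 47.8 to 75.2 CPM in drinkers and 40.9 to 60.1 CPM in controls (0.18, standard error 0.068, adjusted p = 0.84). ADCY6 on the first of these lists and RGS9 on the second, each among the 2 lowest p-values of its list, were listed at 0 in 15 and 16 of 17 drinkers and in 8 of 11 controls each, so their fitted differences rest on few animals. Of the receptor kinases and arrestins, 5 of 7 were tested, and between drinkers and controls 0 rose and 0 fell, with a median of −0.01. ARRB1, an arrestin, had a difference of −0.06 (standard error 0.086).

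GRK2, the kinase that phosphorylates active receptors, had a difference of −0.16 between drinkers and controls (standard error 0.068, adjusted p = 1.0). It was the only gene on these lists that was called in any comparison, as 1 of 5 kinases and arrestins within cohort 1, where 0.959% of all transcripts were called, and the rest of its values are given after having been seen. Within cohort 1 the difference was −0.32 (standard error 0.076, adjusted p = 0.039), at 117 to 143 CPM in drinkers and 138 to 187 CPM in controls, which overlapped. The difference was about as large when cohort 1 was fitted alone (−0.32, adjusted p = 0.136) and with DESeq2 size factors (−0.31, adjusted p = 0.0548), where it was not called. In cohort 2 drinkers had 131 to 186 CPM and controls 135 to 158 CPM, a difference of 0.06 (standard error 0.10), and the interaction of 0.39 (standard error 0.13) had an adjusted p of 0.316.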

How the data were processed

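The authors trimmed paired reads of mRNA libraries with Trim Galore 0.6.7, ran Salmon 1.9.0 on Mmul_10 and deposited the estimated counts unnormalized, with a column for each animal and 1 transcript per gene symbol. Their own normalization used DESeq2 1.36.0 and is not part of the table. Estimated counts were rounded to whole numbers, and the 1 entry without a symbol (1.16e-05% of counts) was left out. No pair of libraries looked like a repeat, since of the transcripts above 0 in either library of a pair at most 1.77% had the same rounded count in both. A transcript was tested if 3 or more animals had 5 or more counts (13769 were, all 5 receptors among them). Comparisons used edgeR 4.0.16 with TMM, the quasi-likelihood test and Benjamini-Hochberg adjustment at 0.05 over all transcripts tested. Standard errors are the fold change over the square root of F. All 28 animals entered each fit, by arm, by cohort and arm, or by category, so that small groups share 1 estimate of the spread. Low and Binge were averaged over their 3 animals.

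Correlations used log2 CPM with a prior count of 2 and 100000 permutations, with Benjamini-Hochberg adjustment over 60 relations. DRD2 enters them over all 28 animals and over the 23 with a count. The second set was chosen after its zeros were seen, as were DRD3 over the animals with counts and the values in drinkers and controls alone. Groups came from the sample labels. Cohorts came from the study's own record of animal numbers, which for controls rests on which animals are listed with each cohort. The members and lists were chosen with earlier results of these data known. Genes named are the receptors, the 5 transcripts most like each over 28 animals, of each pathway list those called and the 2 with the lowest p between drinkers and controls, and SLC6A3 and TH. Of those most like DRD1, 1 is not reported here. Other genes named are on the marker lists. NCS1, GRK4, MAG, C1QA and ADORA2A have no entry in the table used here, and ARRB2, ALDH1L1, SLC1A2, BCL11B, SLC6A4 and FEV did not pass the count filter. Alternatives were DESeq2 1.42.0 (size factors or Wald test), limma 3.58.1 (voom), other filters, no mitochondrial transcripts, cohort or the dopamine neuron score as a covariate, subsets of animals, and leaving out single animals of small groups. The tests were tested on simulated data, where edgeR missed part of the changes put in and, in each comparison simulated, called more unchanged transcripts than the threshold allows. Of 100 changes put in at each size, it recovered 43 to 58 at 2-fold and 62 to 69 at 4-fold. It called 9 to 36 unchanged transcripts. R was 4.3.3, and Python 3.11.15 with numpy 2.4.6, pandas 2.3.3, scipy 1.17.1 and matplotlib 3.10.9 made the other values. Positions, lengths and sequence are from the RefSeq annotation and genome of Mmul_10.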

Additional observations from a re-analysis of the deposited data

Results flagged for a closer look

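Among 25 groups of 4 to 10 animals tested for a value far from the rest, 2 held one, and chance alone gives about 1 in 20 such groups. DRD2 in Control 5 was at 87.4 CPM, far from the next of the 8 controls of cohort 1, at 39.9 CPM. DRD3 in Heavy 2 was at 2.08 CPM, far from the next of the 8 drinkers of cohort 1, at 0.748 CPM.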

How the results depend on the processing

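No paired analysis was possible because the labels and records used here do not say which control was yoked to which drinker. None of the 423 alternative fits of a receptor was called, and 395 of 428 alternative values kept the sign of their log2 difference. Of the 90 alternative counts of transcripts called, 70 stayed within 1.5 times. DESeq2's Wald test called 11 transcripts between drinkers and controls, 22 for Very Heavy and 48 for Heavy drinkers against controls, 54 between Very Heavy and Heavy drinkers, 54 within cohort 2 (limma-voom 3), 152 for the interaction (4 with the dopamine neuron score), 443 within cohort 1 (5 for cohort 1 alone), 645 between the cohorts' drinkers (426 with at least 10 counts in every animal, 104 for drinkers alone) and 430 for Low and Binge drinkers (10 with limma-voom, 2 with at least 10 counts in every animal). Leaving out 1 animal gave 0 to 236 calls for Low and Binge drinkers, with 0 without Low 1, and 0 to 4 for the interaction. The cause of these shifts was not tested.

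The sign turned in 33 values, and none of them passed the test. Leaving out single animals gave log2 differences for DRD1 of −0.35 to 0.04 (Heavy against controls), −0.15 to 0.23 (Very Heavy against Heavy), −0.21 to 0.066 (within cohort 2) and −0.19 to 0.085 (interaction). For DRD2 it gave −6.51 to 0.32 (Low and Binge, 0.32 without Low 1) and −0.28 to 2.14 (within cohort 2, −0.28 without Control 9). For DRD3 within cohort 2 it gave −0.24 to 0.23, and for DRD4 −0.14 to 0.36 (Heavy against controls) and −0.20 to 0.47 (within cohort 2). With limma-voom DRD3 was −0.12 within cohort 1, 0.98 between the cohorts' drinkers and −0.20 within cohort 2, DRD4 was −0.063 for Heavy drinkers and −0.072 within cohort 2, and DRD5 was −0.043 for Very Heavy drinkers and −0.085 for all drinkers against controls. With the dopamine neuron score DRD2 was 0.058 and DRD5 was 0.039 within cohort 1 and −0.0024 for the interaction. In the same fit DRD3 was 0.016 for Very Heavy drinkers, 0.092 between the cohorts' drinkers and −0.056 within cohort 2, and DRD4 was −0.019 and −0.023 in the last 2 of these. DRD1 was −0.0083 between Very Heavy and Heavy drinkers with cohort as a covariate, and 0.00053 with DESeq2 size factors and 0.0027 by DESeq2 within cohort 1. DRD4 was −0.00395 between the cohorts' drinkers by DESeq2, and DRD5 was −0.019 on log2 CPM for all drinkers (permutation test, adjusted p = 0.989). Pearson's r of DRD2 with the dopamine neuron score, 0.50 over all animals, was 0.92 over the 23 with counts, 0.48 in cohort 2, 0.46 in drinkers and 0.55 in controls, the last 3 not past an unadjusted p of 0.05. That of DRD1 with the dopamine neuron score was −0.081 in cohort 1, −0.095 without the 2 animals farthest from the median and −0.20 in controls, and that of DRD4 was 0.12 in cohort 2. ADCY6, at 0 in most animals, had a fitted difference of −2.53, and 0.14 by DESeq2. DRD3 had 0 to 52 and DRD4 1 to 31 counts per animal, and the part of depth in their intervals was not tested.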
